A study of Homo sapiens with 16 samples.

Results

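The genes described here encode extracellular proteases and their inhibitors. They were chosen by name: the rule took protein-coding genes called MMP, ADAM, ADAMTS or TIMP followed by a number, every gene whose symbol begins with SERPIN, and PLAU, PLAT and PLAUR. To be a member, a gene also had to be listed in all 4 of the authors' deposited tables. This gave 58 members among the 19344 genes present in all 4 tables. The RNA came from U2OS, an established human osteosarcoma line, and poly(A) RNA was sequenced in 16 libraries. The 4 groups of 4 libraries each were siControl with DMSO, siControl with Nutlin-3a, siRFX7 with DMSO and siRFX7 with Nutlin-3a. Every culture was thus transfected with an siRNA, either the control one or one directed at the transcription factor RFX7. Treatment lasted 24 h, with 10 µM Nutlin-3a, which keeps MDM2 from binding p53 and so stabilises p53, or with the solvent DMSO alone. The labels do not say whether libraries of a group came from separate cultures, so the errors measure only the spread between these libraries.

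Matrix metalloproteinases (MMPs), ADAM and ADAMTS proteases are zinc enzymes of one superfamily. MMPs cut collagens and other matrix proteins, and most are secreted as inactive precursors, while membrane-type MMPs stay anchored to the cell surface. ADAM proteases release the outer parts of membrane proteins, such as growth factor precursors and Notch, and ADAMTS proteases cut matrix proteoglycans and procollagens. TIMPs bind to the active sites of these enzymes and block them. The plasminogen activators PLAU (urokinase) and PLAT (tissue activator) turn plasminogen into plasmin, a serine protease that degrades fibrin and helps to activate MMPs. PLAUR is the cell surface receptor of urokinase. Serpins are mostly suicide inhibitors of serine proteases: SERPINE2 can block the plasminogen activators and thrombin, and clade B serpins act largely inside cells. Bone tumour cells and osteoblasts use such enzymes to remodel matrix. The set is broader than its name, since some members are neither extracellular proteases nor inhibitors. PLAUR is a receptor, SERPINH1 (HSP47) is a collagen chaperone of the endoplasmic reticulum, and ADAM11, ADAM22 and ADAM23 are cell surface proteins without protease activity.

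The files hold no value of a single library, so each error below is the standard error (SE) that the authors deposited with a log2 fold change. The base means, which are mean normalised counts over the 8 libraries of a comparison, added up to between 27946400 and 35311100 per table. RFX7 was at 18.6% of its siControl level under DMSO and at 19.4% under Nutlin-3a, by the log2 fold changes of the authors' deposited tables. The p53 targets CDKN1A and MDM2 responded to Nutlin-3a in siControl with log2 fold changes of 3.24 and 2.89, per the authors' deposited table. Of 8 osteosarcoma and mesenchymal markers, all were listed in the authors' deposited table for siControl. VIM, COL1A1 and SPARC had base means of 84576, 39039 and 31574 there, and BGLAP and COL1A2 had 4.25 and 13.2. The 3 listed blood markers (CD14, CD68 and PTPRC) added up to a base mean of 11.2 per that authors' deposited table, and the 2 endothelial ones to 9.60, while CD3E, KDR and the epithelial KRT5 were not listed. Epithelial markers (CDH1, EPCAM and KRT14) added up to 374. EPCAM and CDH1 were called higher with siRFX7, CDH1 by 0.85 under DMSO and 1.10 under Nutlin-3a per the authors' deposited tables. KRT14 rose with Nutlin-3a, by 0.62 in siControl and 0.75 in siRFX7 per the authors' deposited tables. With siRFX7 under DMSO and Nutlin-3a, SPP1 was at -0.87 and -0.60 and COL1A1 at 0.38 and 0.27 per the authors' deposited tables, all called. The part of these genes in the results on the proteases was not tested. In bulk RNA, fewer cells with a transcript and less of it per cell cannot be told apart.

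GENCODE 29 annotates 102 protein-coding genes whose names match the rule. Of these, 58 were in all 4 tables, 10 were in 1 to 3 tables, and 34 were in none. The 10 were ADAM20, ADAM21, ADAMTS7, ADAMTS18, MMP7, MMP10, MMP11, MMP13, SERPINA9 and TIMP4, and none of their values passed an adjusted p of 0.05. The highest base mean among these 10 genes was 7.26, that of MMP10. The tables list only genes that received an adjusted p. Coverage differed by family: all 3 genes of plasminogen activation and all 6 membrane-type MMPs were members, against 6 of 16 other MMPs, 12 of 20 ADAM genes and 15 of 19 ADAMTS genes. Among inhibitors, 3 of 4 TIMPs, 5 of 13 clade B serpins and 8 of 21 other serpins were members. The 34 genes listed in no table include SERPINB2, SERPINA3, MMP8, MMP28 and ADAMTS4. A total of 42 members had base means of at least 100 in every table.

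Group levels were reconstructed from each base mean and log2 fold change, and every group could be obtained from tables that share it. Across 13523 genes, the level of siRFX7 with DMSO obtained from a pair of tables differed, after scaling, by at most 0.00471 on the log2 scale at the 95th percentile. These levels are normalised counts per library and carry no error of their own. To compare genes with each other they were divided by the length of the gene's exons in kb. This length covers the exons of every annotated transcript, expressed or not, and was 16168 bases for ADAM10 and 1541 for TIMP1. Comparisons between genes thus depend in part on the annotation.

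**Figure D1:**
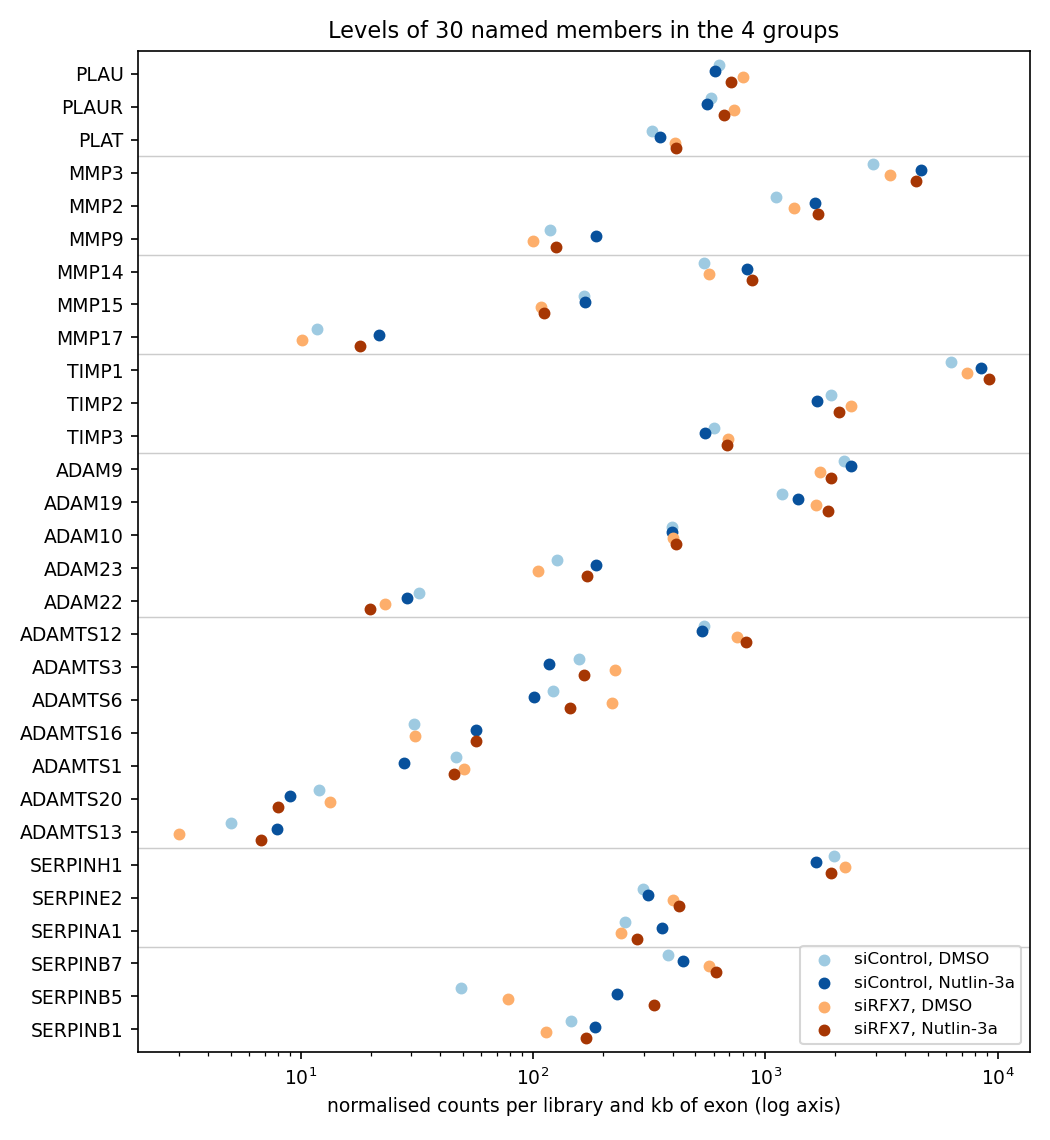
Level of each of 30 named members (rows, grouped by role) in the 4 groups, as normalised counts per library and kb of exon on a log axis. Each dot is 1 group level reconstructed from the deposited tables, without an error bar. TIMP1 is the highest of the members drawn in every group, between 6301 and 9176.

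Of the members described here, TIMP1 had the highest level per kb of exon in each group, at 6301 in siControl with DMSO, 8431 in siControl with Nutlin-3a, 7350 in siRFX7 with DMSO and 9176 in siRFX7 with Nutlin-3a. MMP3 (stromelysin-1) followed at 2910, 4665, 3424 and 4422 per kb in the same order, and made up 55.2% to 58.2% of the summed per-kb level of all MMP members. TIMP2, ADAM9, SERPINH1, ADAM19 and MMP2 lay between 1113 and 2332 per kb in every group, in an order that differed between groups. At the other end, 16 members had a base mean under 100 in every table, and none of these exceeded 32.3 per kb in any group. MMP1 (interstitial collagenase) was among them, at 14.1, 20.7, 17.9 and 14.1 normalised counts in siControl with DMSO, siControl with Nutlin-3a, siRFX7 with DMSO and siRFX7 with Nutlin-3a.

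The response to p53 stabilisation was read from Nutlin-3a against DMSO. Among siControl libraries 25 of 58 members rose and 9 fell at an adjusted p under 0.05 per the authors' deposited table. Of all 23353 genes in that table, 18.3% were higher and 19.6% lower. At base means of 100 or more, the background was 24.7% higher and 31.6% lower, against 22 and 8 of the 42 members at that level. The median log2 fold change of the members was 0.20, against 0.01 for all genes of the authors' deposited table. In siRFX7 25 members rose and 8 fell in the authors' deposited table, where 18.7% of all 21382 genes were higher and 20.3% lower. At a base mean of 100 or more the background in siRFX7 was 24.8% and 31.5%, against 23 and 7 of 42 members, and the members' median was 0.16. The tables for siControl and siRFX7 share no library: 28 members were called in both, 22 higher and 6 lower, each with the same sign. Of the 21339 genes in both tables, 6797 were called in both, and 6781 of these had the same sign. Their split into higher and lower is not given here.

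**Figure D2:**
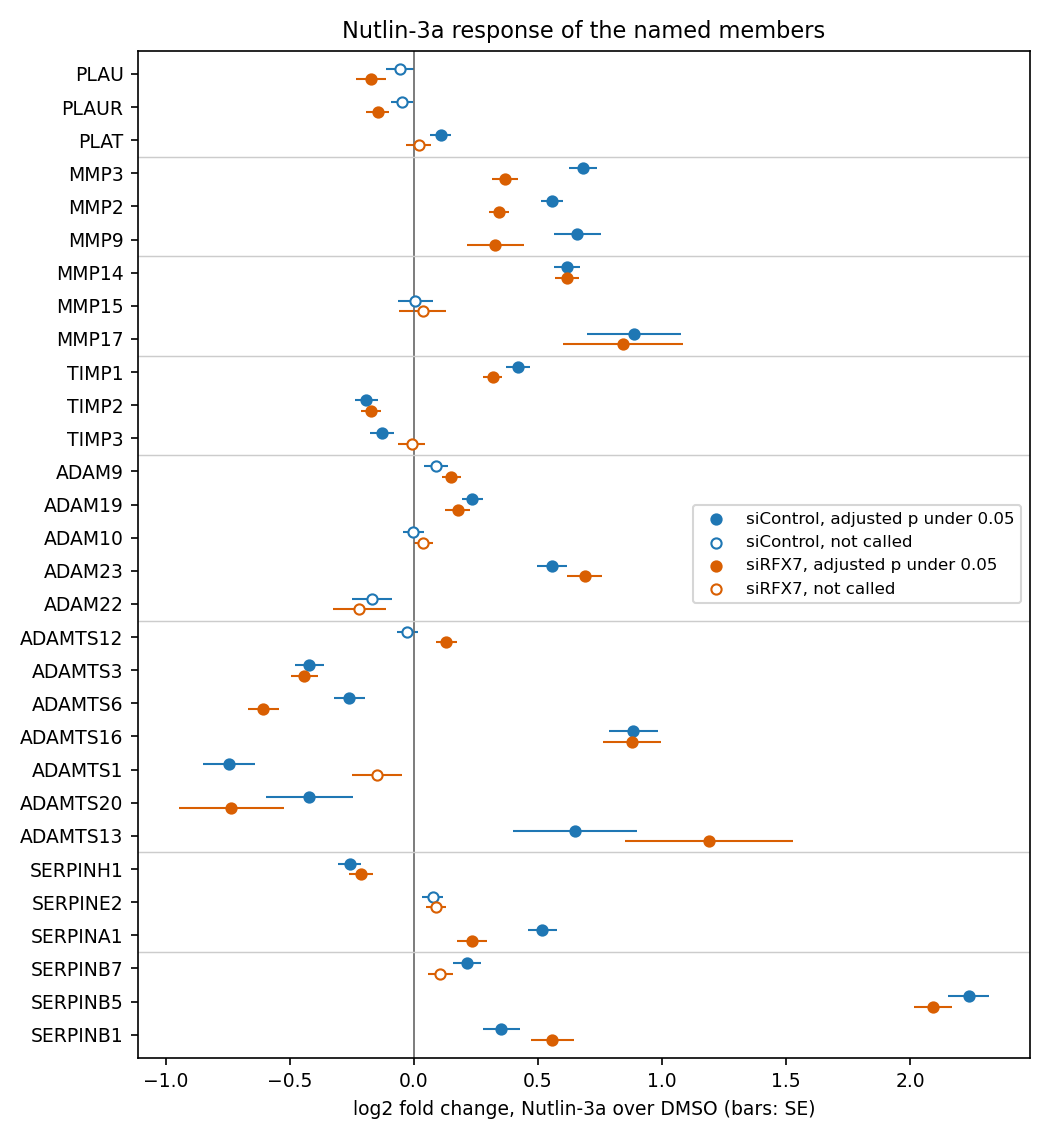
Log2 fold change with Nutlin-3a over DMSO of 30 named members, in siControl (blue) and siRFX7 (orange), from the authors' deposited tables. Bars are the authors' SE and open circles did not pass an adjusted p of 0.05. SERPINB5 (2.23 and 2.09) lies farthest to the right, and ADAMTS1, ADAMTS3, ADAMTS6 and ADAMTS20 lie to the left of 0.

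The largest response of the members was that of a clade B serpin. SERPINB5 (maspin, known as a p53 target) stood at 193 normalised counts in siControl with DMSO, 909 in siControl with Nutlin-3a, 308 in siRFX7 with DMSO and 1312 in siRFX7 with Nutlin-3a. Both Nutlin-3a groups were above both DMSO groups. Its log2 fold change was 2.23 ± 0.08 (SE; DESeq2 adjusted p 2.14e-157) per the authors' deposited table for siControl and 2.09 ± 0.08 (adjusted p 1.84e-158) in that for siRFX7.

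The promoter of SERPINB5 is shown because this gene had the largest fold change of the members and its promoter has a sequence entry. RefSeq promoters of 300 bases (250 before and 50 after the start, build GRCh38.p14) matched 33 of the 58 members by symbol. The full p53 half-site, a consensus with degenerate positions, was in none of these 33 members and in 6.63% of 35114 promoters, both strands searched. The 6 letters ACATGT, which hold the CATG core of many p53 sites and read the same on both strands, were chosen after the SERPINB5 sequence had been read. They were found in SERPINB5 as the only member and in 4.19% of all promoters. The ACATGT site starts 195 bases before the RefSeq start. The whole stretch printed below lies at chr18:63476751-63476780 on the plus strand. GENCODE 29 places the first base of the gene within this stretch, at 63476761, just before ACATGT, so by that annotation the site lies inside the gene. Capitals mark ACATGT:
SERPINB5: cttcctgcccgaACATGTtggaggcctttt

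A match is a description of letters only. The neighbouring clade B genes on chromosome 18 had smaller responses: SERPINB7 (63752935 to 63805376) rose by 0.21 ± 0.06 (SE) per the authors' deposited table for siControl, and SERPINB8 (63969925 to 64019779) by 0.31 ± 0.07. In the authors' deposited table for siRFX7, SERPINB8 rose by 0.23 ± 0.07 and SERPINB7 was not called (0.11 ± 0.05, adjusted p 0.0876). SERPINB1, an inhibitor of neutrophil serine proteases, and SERPINB6, its neighbour on chromosome 6, rose in both. All 5 clade B members were thus called higher in siControl, and 4 of 5 in siRFX7. Over all genes the shares called higher were 18.3% and 18.7%, and at a base mean of 100 or more 24.7% and 24.8%.

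Among other serpins, SERPINA1 (alpha-1-antitrypsin, the inhibitor of neutrophil elastase) stood at 1225, 1753, 1171 and 1377 normalised counts in siControl with DMSO, siControl with Nutlin-3a, siRFX7 with DMSO and siRFX7 with Nutlin-3a. It rose by 0.52 ± 0.06 (SE) per the authors' deposited table for siControl and by 0.23 ± 0.06 in that for siRFX7. SERPING1 (the C1 inhibitor) rose by 0.31 ± 0.06 and 0.35 ± 0.07 per these authors' deposited tables. SERPINF1 (PEDF) rose by 0.47 ± 0.16 in siControl per the authors' deposited table. SERPINH1, the collagen chaperone, was the only other serpin that fell, by 0.26 ± 0.04 per the authors' deposited table for siControl and by 0.21 ± 0.05 in that for siRFX7. SERPINE2 (protease nexin-1) was not called in either of the authors' deposited tables, at 0.08 ± 0.04 and 0.09 ± 0.04, but passed in both after re-centring (adjusted p 0.0448 and 0.0119).

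Of 6 secreted MMPs, 4 rose in both authors' deposited tables and none fell. Over all genes, 18.3% rose in siControl and 18.7% in siRFX7. At a base mean of 100 or more, 24.7% and 24.8% rose, though MMP1 and MMP12 had lower base means. MMP3 stood at 5960 normalised counts in siControl with DMSO, 9555 in siControl with Nutlin-3a, 7012 in siRFX7 with DMSO and 9055 in siRFX7 with Nutlin-3a. Its rise was 0.68 ± 0.06 (SE; DESeq2 adjusted p 2.03e-31) per the authors' deposited table for siControl and 0.37 ± 0.05 in that for siRFX7. MMP2 (gelatinase A) stood at 5492, 8078, 6539 and 8301, and rose by 0.56 ± 0.04 and 0.34 ± 0.04 per these authors' deposited tables. MMP9 (gelatinase B), at 277, 437, 233 and 294 normalised counts, rose by 0.66 ± 0.10 and 0.33 ± 0.11 per the same authors' deposited tables. For all 3, both Nutlin-3a groups were above both DMSO groups. MMP19 rose by 0.38 ± 0.07 and 0.41 ± 0.07 per the authors' deposited tables. MMP1 and MMP12, which lie beside MMP3 in the MMP cluster of chromosome 11 (102789920 to 102875034), were not called.

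Of 6 membrane-type MMPs, 4 were called higher in each of the authors' deposited tables and none lower. The shares of all genes called higher were 18.3% in siControl and 18.7% in siRFX7. At a base mean of 100 or more they were 24.7% and 24.8%, though MMP17 and MMP25 had lower base means. MMP14 (MT1-MMP, the surface activator of pro-MMP2) stood at 2423, 3716, 2549 and 3914 normalised counts in siControl with DMSO, siControl with Nutlin-3a, siRFX7 with DMSO and siRFX7 with Nutlin-3a. It rose by 0.62 ± 0.05 (SE) in both authors' deposited tables. MMP17 rose by 0.89 ± 0.19 and 0.84 ± 0.24 per the authors' deposited tables, at a low level of 40.7 to 87.1 normalised counts. MMP16 and MMP24 rose by between 0.20 and 0.34 per the authors' deposited tables. MMP15 (0.01 ± 0.07 and 0.04 ± 0.10) and MMP25 were not called in these authors' deposited tables.

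The 3 TIMPs had calls in both directions. TIMP1, which inhibits most MMPs and also signals through cell surface receptors, rose by 0.42 ± 0.05 (SE) per the authors' deposited table for siControl and by 0.32 ± 0.04 in that for siRFX7. Its levels were 9710, 12992, 11327 and 14141 normalised counts. TIMP2, which also takes part in the activation of pro-MMP2 by MMP14, fell by 0.19 ± 0.05 and 0.17 ± 0.04 per the authors' deposited tables. TIMP3, which stays bound to matrix and inhibits ADAM17, fell by 0.13 ± 0.05 in siControl per the authors' deposited table. That call for TIMP3 was lost (adjusted p 0.0823) when log2 values were re-centred on the median of well-expressed genes, and in siRFX7 the value was -0.01 ± 0.05 per the authors' deposited table.

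The genes of plasminogen activation had small values with Nutlin-3a. PLAU, PLAT and PLAUR had log2 fold changes of -0.06 ± 0.06 (SE), 0.11 ± 0.04 and -0.05 ± 0.04 per the authors' deposited table for siControl, of which that of PLAT was called (adjusted p 0.0331). In the authors' deposited table for siRFX7, PLAU fell by 0.17 ± 0.06, PLAUR fell by 0.15 ± 0.05, and PLAT was at 0.02 ± 0.05.

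Of 12 ADAM genes, 4 rose in siControl and 6 in siRFX7, and none fell in either of the authors' deposited tables. Over all genes, 18.3% rose and 19.6% fell in siControl, and 18.7% and 20.3% in siRFX7. At a base mean of 100 or more, 24.7% rose and 31.6% fell in siControl, and 24.8% and 31.5% in siRFX7. ADAM8, ADAM28 and ADAM32 had lower base means. ADAM23, a non-catalytic adhesion protein of the nervous system, had the largest change among the ADAM genes called: 0.56 ± 0.06 (SE) and 0.69 ± 0.07 per the authors' deposited tables. ADAM17 (TACE), the sheddase of TNF and EGF receptor ligands, rose by 0.20 ± 0.05 and 0.33 ± 0.05 per the authors' deposited tables, and ADAM19 rose by 0.24 ± 0.04 and 0.18 ± 0.05. ADAM10, the main sheddase of Notch, held 6430, 6416, 6461 and 6641 normalised counts in the 4 groups. Its log2 fold changes were -0.00 ± 0.04 and 0.04 ± 0.04 per the authors' deposited tables, and it was called in none of the 4 comparisons.

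Of 15 ADAMTS genes, 6 fell and 2 rose in siControl, and 4 fell and 3 rose in siRFX7, per the authors' deposited tables. The shares that fell were 40.0% and 26.7%, against 19.6% and 20.3% of all genes. At a base mean of 100 or more, 31.6% and 31.5% of genes fell. The shares of the 15 ADAMTS genes cannot be set directly against these, since some, such as ADAMTS5 and ADAMTS20, had lower base means. ADAMTS15, which cuts aggrecan and versican, stood at 2260, 1606, 2476 and 1880 normalised counts in siControl with DMSO, siControl with Nutlin-3a, siRFX7 with DMSO and siRFX7 with Nutlin-3a. It fell by 0.49 ± 0.05 (SE) and 0.40 ± 0.05 per the authors' deposited tables. Its neighbour on chromosome 11, ADAMTS8, fell by 0.20 ± 0.07 in siControl per the authors' deposited table. ADAMTS3, a procollagen N-proteinase, fell by 0.42 ± 0.06 and 0.44 ± 0.05 per the authors' deposited tables. ADAMTS20 fell by 0.42 ± 0.18 and 0.74 ± 0.21 per the authors' deposited tables, at 58.2 to 97.0 normalised counts; with re-centring its siControl call was lost (adjusted p 0.0655). ADAMTS16 went the other way, from 180 to 333 normalised counts in siControl and from 182 to 335 in siRFX7. It rose by 0.88 ± 0.10 and 0.88 ± 0.12 per the authors' deposited tables. ADAMTS13, the protease of von Willebrand factor, rose by 0.65 ± 0.25 and 1.19 ± 0.34 per the authors' deposited tables, at 17.1 to 45.0 normalised counts.

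The effect of the RFX7 siRNA was read from siRFX7 against siControl. With DMSO, 23 of 58 members were higher and 10 lower in the authors' deposited table, in which 19.9% of 19511 genes were higher and 17.5% lower. At a base mean of 100 or more the background was 27.1% and 22.6%, against 22 and 10 of 42 members. Under Nutlin-3a 21 members were higher and 10 lower per the authors' deposited table, where 17.2% of 20335 genes were higher and 15.4% lower. At a base mean of 100 or more that background was 24.6% and 20.6%, against 21 and 9 of 42 members. Members had a median of 0.10 with DMSO and of 0.06 with Nutlin-3a, against -0.00 and -0.01 for all genes of the authors' deposited tables. These tables share no library with each other; 25 members were called in both, 18 higher and 7 lower, each with the same sign, as were 5050 of 5076 genes overall. Each of them shares its siControl libraries with the Nutlin-3a comparison in siControl.

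**Figure D3:**
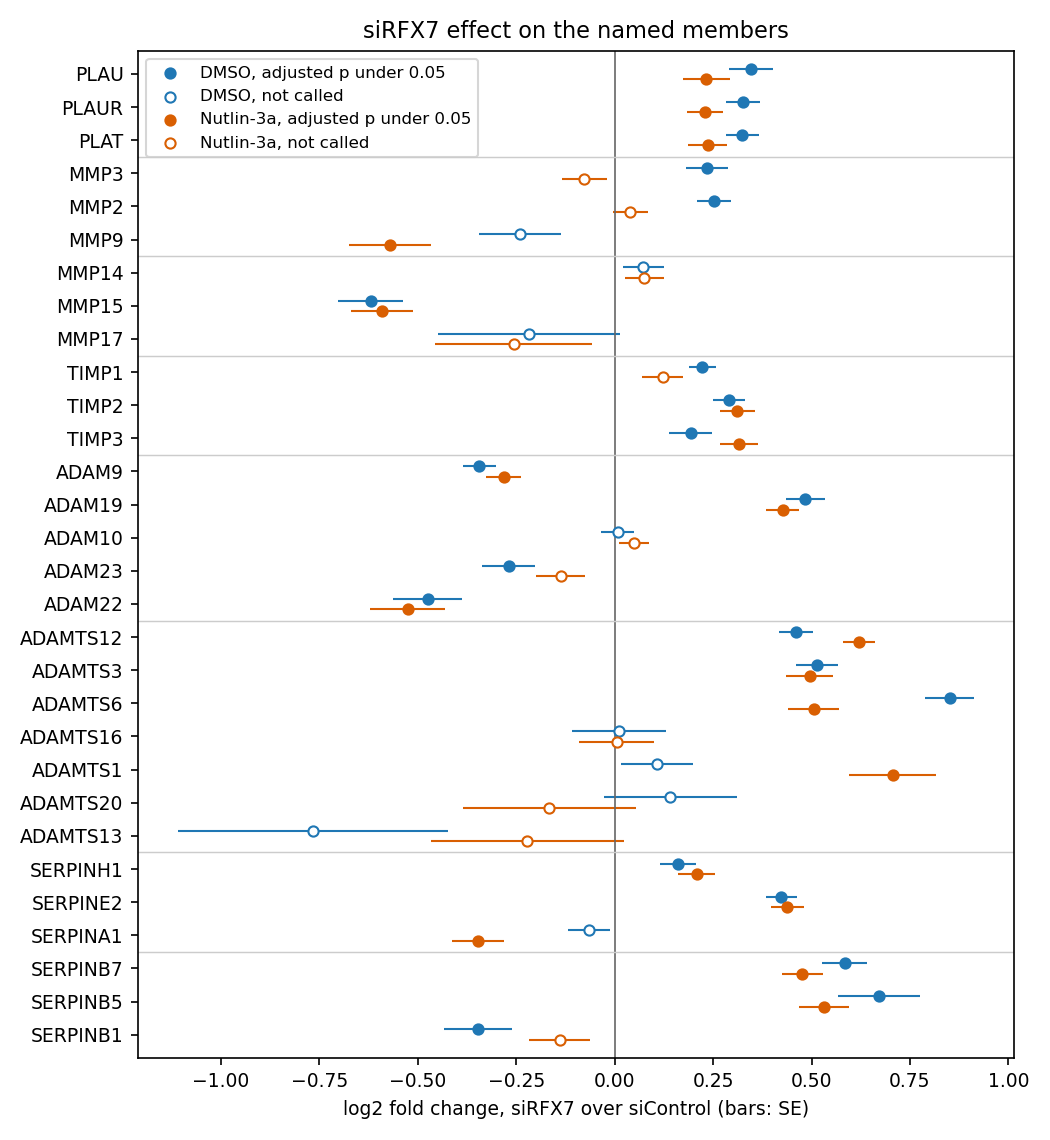
Log2 fold change of siRFX7 over siControl of 30 named members, under DMSO (blue) and Nutlin-3a (orange), from the authors' deposited tables. Bars are the authors' SE and open circles did not pass an adjusted p of 0.05. PLAU, PLAUR and PLAT lie together at 0.32 to 0.35 under DMSO and 0.23 to 0.24 under Nutlin-3a, while MMP15 (-0.62 and -0.59) and ADAM22 (-0.48 and -0.53) lie to the left of 0.

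All 3 genes of plasminogen activation were higher with siRFX7 under both treatments. Over all genes, 19.9% were higher under DMSO and 17.2% under Nutlin-3a. At a base mean of 100 or more, where these 3 genes lie, the shares were 27.1% and 24.6%. PLAU stood at 1857 normalised counts in siControl with DMSO, 1787 in siControl with Nutlin-3a, 2360 in siRFX7 with DMSO and 2096 in siRFX7 with Nutlin-3a. The order for PLAUR was 2595, 2510, 3253 and 2944, and for PLAT 2156, 2323, 2699 and 2739. In each of the 3 genes both siRFX7 groups were above both siControl groups. Under DMSO the log2 fold changes were 0.35 ± 0.06 (SE) for PLAU, 0.32 ± 0.04 for PLAT and 0.33 ± 0.04 for PLAUR in the authors' deposited table. Under Nutlin-3a they were 0.23 ± 0.06, 0.24 ± 0.05 and 0.23 ± 0.05 per the authors' deposited table. SERPINE2, which inhibits urokinase and thrombin, was higher as well, at 0.42 ± 0.04 and 0.44 ± 0.04 per the authors' deposited tables for DMSO and Nutlin-3a.

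TIMPs were higher too: all 3 were called under DMSO and TIMP2 and TIMP3 under Nutlin-3a. The shares of all genes called higher were 19.9% and 17.2%, and 27.1% and 24.6% at a base mean of 100 or more. TIMP2 was at 0.29 ± 0.04 (SE) and 0.31 ± 0.04 per the authors' deposited tables, and TIMP3 at 0.19 ± 0.05 and 0.32 ± 0.05. TIMP1 was at 0.22 ± 0.03 under DMSO and 0.12 ± 0.05 under Nutlin-3a per the authors' deposited tables, the latter with an adjusted p of 0.056. SERPINH1 was higher by 0.16 ± 0.05 and 0.21 ± 0.05 per the authors' deposited tables. Among clade B serpins, SERPINB5 (0.67 ± 0.10 and 0.53 ± 0.06) and SERPINB7 (0.58 ± 0.06 and 0.48 ± 0.05) were higher under both treatments in the authors' deposited tables. SERPINB1 was lower under DMSO, at -0.35 ± 0.09 per the authors' deposited table, and SERPINA1 was lower under Nutlin-3a, at -0.35 ± 0.07.

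The largest increase among the members was that of an ADAMTS gene under each treatment, ADAMTS6 with DMSO and ADAMTS1 with Nutlin-3a. ADAMTS6 was higher by 0.85 ± 0.06 (SE; DESeq2 adjusted p 3.92e-41) under DMSO and by 0.50 ± 0.06 under Nutlin-3a per the authors' deposited tables. ADAMTS12 stood at 5339, 5239, 7348 and 8054 normalised counts in siControl with DMSO, siControl with Nutlin-3a, siRFX7 with DMSO and siRFX7 with Nutlin-3a. It was higher by 0.46 ± 0.04 and 0.62 ± 0.04 (adjusted p 5.24e-50) per the authors' deposited tables. ADAMTS3 was higher by 0.51 ± 0.05 and 0.50 ± 0.06 per the authors' deposited tables, with 1127, 842, 1609 and 1188 normalised counts in the 4 groups. ADAMTS15 and ADAMTS8 were higher by 0.13 to 0.23 per the authors' deposited tables. ADAMTS10, which acts on fibrillin microfibrils, was the only ADAMTS gene called lower, at -0.29 ± 0.11 and -0.25 ± 0.10 per the authors' deposited tables.

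Of 6 membrane-type MMPs, 3 were called lower with siRFX7 under each treatment (MMP15, MMP16 and MMP24) and the other three were not called. Of 12 ADAM genes, 2 were higher and 5 lower under DMSO, and 3 were higher and 3 lower under Nutlin-3a. Over all genes, 19.9% were higher and 17.5% lower under DMSO, and 17.2% and 15.4% under Nutlin-3a. At a base mean of 100 or more, 27.1% were higher and 22.6% lower under DMSO, and 24.6% and 20.6% under Nutlin-3a. MMP15 (MT2-MMP) stood at 735 and 738 normalised counts in siControl with DMSO and Nutlin-3a, and at 478 and 490 in siRFX7. Both siRFX7 groups were below both siControl groups, by -0.62 ± 0.08 (SE) and -0.59 ± 0.08 per the authors' deposited tables. MMP16 and MMP24 were lower under both treatments as well, at -0.14 to -0.29 per the authors' deposited tables. MMP14 did not pass, at 0.07 ± 0.05 under both treatments in the authors' deposited tables. ADAM9, the highest ADAM gene per kb, stood at 15122, 16080, 11911 and 13227 normalised counts. It was lower by -0.34 ± 0.04 and -0.28 ± 0.04 per the authors' deposited tables, and ADAM17 by -0.42 ± 0.05 and -0.29 ± 0.05. ADAM22, a non-catalytic receptor of the secreted protein LGI1, was lower by -0.48 ± 0.09 and -0.53 ± 0.10 per the authors' deposited tables. Higher were ADAM15, at 0.10 ± 0.04 and 0.19 ± 0.05 per the authors' deposited tables, ADAM12 under Nutlin-3a, and ADAM19. The values of ADAM19 were 0.48 ± 0.05 and 0.43 ± 0.04 per the authors' deposited tables, with 9054, 10660, 12669 and 14330 normalised counts in the 4 groups.

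Among secreted MMPs, MMP19 was higher under both treatments, at 0.39 ± 0.07 (SE) and 0.42 ± 0.06 per the authors' deposited tables. MMP2 and MMP3 were higher under DMSO, at 0.25 ± 0.04 and 0.23 ± 0.05 per the authors' deposited table. Under Nutlin-3a they did not pass, at 0.04 ± 0.04 and -0.08 ± 0.06 per the authors' deposited table. MMP9 was lower under Nutlin-3a, at -0.57 ± 0.11 (adjusted p 6.47e-07) per the authors' deposited table, and at -0.24 ± 0.10 under DMSO (adjusted p 0.0559).

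Sequence letters in 3′ UTRs were looked at because genes lower with siRFX7 carried one heptamer, GTATCTA, more often than others. This heptamer had been picked earlier from these same fold changes, so it is not independent evidence. It was in 7.80% of 13705 genes with a GENCODE 29 3′ UTR, and in 21.1% of the 1846 called lower with siRFX7 under both treatments. Among members, 57 had such a UTR and 7 carried the heptamer. Of the 7 members lower under both treatments (ADAM9, ADAM17, ADAM22, ADAMTS10, MMP15, MMP16 and MMP24), ADAM22 carried it. SERPINB1, a carrier, was lower under DMSO. The carriers ADAMTS1 and ADAM12 were called higher under Nutlin-3a, at 0.71 ± 0.11 (SE) and 0.15 ± 0.05 per the authors' deposited table, and ADAMTS5, ADAMTS13 and ADAMTS17 were not called. The 3′ UTRs of carriers had a median length of 2813 bases, against 1208 in the other members. The sites of the 4 carriers called in a knockdown comparison follow, with the heptamer in capitals; they lie on GRCh38 at chr7:88199039-88199067 (plus strand, ADAM22), chr6:2833415-2833443 (minus, SERPINB1), chr21:26836030-26836058 (minus, ADAMTS1) and chr10:126015608-126015636 (minus, ADAM12):
ADAM22: agtttcaagaaGTATCTAtatgtatactc
SERPINB1: ttttggcatggGTATCTAtttttcttttt
ADAMTS1: ttgttactaatGTATCTAataatatacat
ADAM12: tgttccccactGTATCTAggcaacatagt

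The part of these sites in the values above was not tested. A second sequence, the hexamer GACGTA, had likewise been picked from genes higher with siRFX7. It was in 10.9% of the 2406 genes called higher under both treatments and in 4.66% of all 13705. None of the 17 members with a UTR that were higher under both treatments carried it.

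Whether the Nutlin-3a response differed with the RFX7 siRNA was tested per gene by subtracting the siControl log2 fold change of Nutlin-3a from the siRFX7 one, both as deposited. Of 58 members, 4 passed an adjusted p of 0.05 (normal test, two-sided, Benjamini-Hochberg over 21339 genes): ADAMTS1 responded more positively in siRFX7, and MMP3, MMP2 and ADAMTS6 more negatively. Over all genes, 0.173% were higher and 0.764% lower in siRFX7, and at an unadjusted p under 0.05 the members numbered 8 (13.8%), against 6.32% of all genes.

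**Figure D4:**
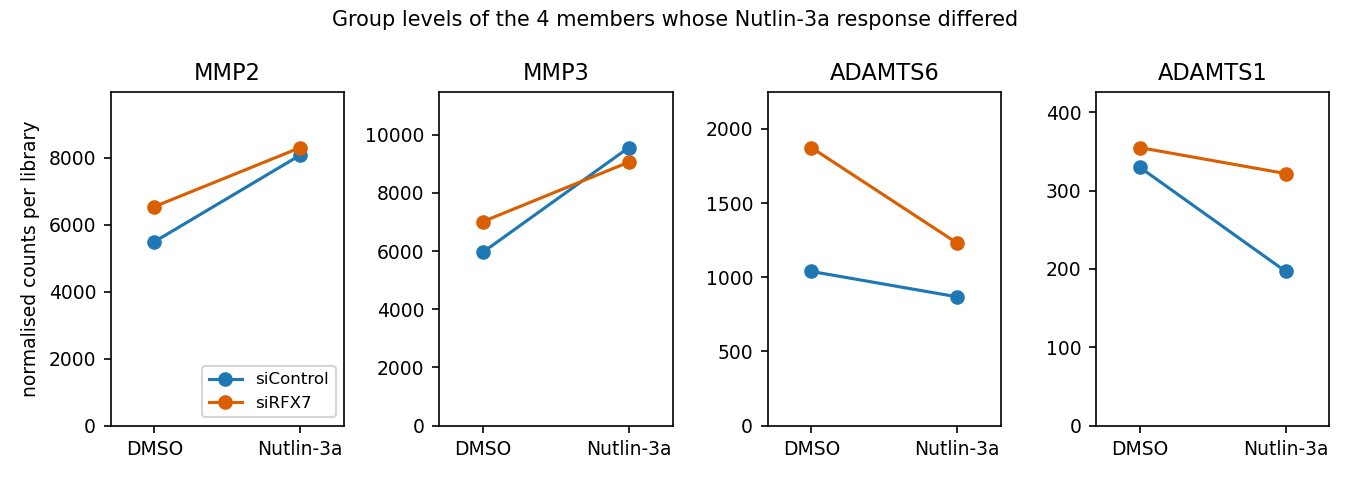
Group levels (normalised counts per library, vertical axes from 0) of MMP2, MMP3, ADAMTS6 and ADAMTS1 under DMSO and Nutlin-3a, in siControl (blue) and siRFX7 (orange), reconstructed from the deposited tables and without error bars. The lines for MMP2 converge, those for MMP3 cross and end at 9555 against 9055 under Nutlin-3a, and ADAMTS1 falls to 197 in siControl against 322 in siRFX7.

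For MMP3 the difference was -0.31 ± 0.08 (SE; adjusted p 0.00906), the rises being 0.68 in siControl and 0.37 in siRFX7 per the authors' deposited tables. Its siRFX7 level was above siControl under DMSO, 7012 against 5960, and slightly below it under Nutlin-3a, 9055 against 9555. For MMP2 the difference was -0.21 ± 0.06 (adjusted p 0.0448), with a higher siRFX7 level under DMSO, 6539 against 5492, and close levels under Nutlin-3a, 8301 against 8078. Both MMPs thus started higher in siRFX7 and rose less. These are not separate observations, since both draw on the same DMSO groups. Under Nutlin-3a, siRFX7 against siControl was not called for MMP3 or MMP2 (DESeq2 adjusted p 0.324 and 0.549).

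ADAMTS6 stood at 1040 normalised counts in siControl with DMSO, 868 in siControl with Nutlin-3a, 1874 in siRFX7 with DMSO and 1230 in siRFX7 with Nutlin-3a. It fell by 0.26 ± 0.06 (SE) with Nutlin-3a in siControl and by 0.61 ± 0.06 in siRFX7 per the authors' deposited tables, so the difference was -0.35 ± 0.09 (adjusted p 0.0152). Its level in siRFX7 stayed above siControl under both treatments. ADAMTS1 (METH-1, a versican-cutting protease with antiangiogenic activity) stood at 330, 197, 355 and 322 normalised counts in the same order of groups. It fell by 0.74 ± 0.10 in siControl and was not called in siRFX7 (-0.15 ± 0.10, adjusted p 0.254) per the authors' deposited tables, so the difference was 0.60 ± 0.14 (adjusted p 0.00631). ADAMTS5, its neighbour on chromosome 21, was at 7.96 to 10.6 normalised counts and was not called.

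The other 54 members did not pass, which does not show that their responses were alike. The next closest were SERPINA1, with a difference of -0.28 ± 0.08 (SE; adjusted p 0.0764), and ADAMTS12, with 0.16 ± 0.06 (adjusted p 0.347). MMP9 was at -0.33 ± 0.15 (adjusted p 0.625), and ADAM11 at 0.31 ± 0.13 (adjusted p 0.524). Among members with a strong response in both, MMP14 had a difference of 0.00 ± 0.07, SERPINB5 of -0.14 ± 0.11 and ADAM23 of 0.13 ± 0.09. ADAMTS13, at a low level, had a difference of 0.54 ± 0.42.

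Activators, receptors and further inhibitors of these proteases were taken from a list of 32 genes that are no members. With Nutlin-3a, 15 of the 30 listed rose and 2 fell in siControl, and 12 rose and 3 fell in siRFX7, in the authors' deposited tables, with list medians of 0.21 and 0.20. The shares that rose were 50.0% and 40.0%, against 18.3% and 18.7% of all genes. At a base mean of 100 or more, 24.7% and 24.8% of genes rose. Most listed genes were at that level, but some, such as A2M and TLL1, had lower base means. LRP1, the endocytic receptor that clears complexes of serpins and proteases, rose by 0.97 ± 0.06 (SE) and 1.04 ± 0.10 per the authors' deposited tables. HTRA1, a secreted serine protease, rose by 1.16 ± 0.15 and 0.93 ± 0.21 per the authors' deposited tables. S100A10, which with ANXA2 binds plasminogen and PLAT at the cell surface, rose by 0.72 ± 0.05 and 0.75 ± 0.05 per the authors' deposited tables. F3, tissue factor, fell by 0.34 ± 0.06 and 0.28 ± 0.07 per the authors' deposited tables. FURIN, which activates membrane-type MMPs and ADAM precursors, was not called, at 0.07 ± 0.04 and -0.07 ± 0.04 per the authors' deposited tables.

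With siRFX7, 10 of 29 listed genes of this list were higher and 6 lower under DMSO, and 9 were higher and 6 lower under Nutlin-3a, per the authors' deposited tables, with list medians of 0.04 and 0.01. The lower share was 20.7% under both, near the 17.5% and 15.4% of all genes. The higher shares were 34.5% and 31.0%, against 19.9% and 17.2%. At a base mean of 100 or more, 27.1% and 24.6% of genes were higher, and 22.6% and 20.6% lower. VLDLR, a receptor that takes up complexes of proteases with serpins, was at 1.28 ± 0.06 (SE) and 1.11 ± 0.07 per the authors' deposited tables. The convertases FURIN (0.50 ± 0.04 and 0.36 ± 0.04) and PCSK7 (0.56 ± 0.06 and 0.54 ± 0.07) were higher in the authors' deposited tables, as was RECK (0.28 ± 0.07 and 0.33 ± 0.06), a membrane-anchored inhibitor of MMPs. PCOLCE, the procollagen C-proteinase enhancer, was lower, at -0.38 ± 0.06 and -0.44 ± 0.07 per the authors' deposited tables. Of the list, TSPAN5, a tetraspanin that guides ADAM10 to the cell surface, was the only gene whose Nutlin-3a response differed, by -0.27 ± 0.06 (adjusted p 0.000909).

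Exons of some members overlap exons of genes on the other strand, and the strand setting of the counting is not given in the sources used here. The share of the member's exon length was 35.2% for MMP25 (with MMP25-AS1), 31.1% for PLAU (C10orf55), 18.4% for MMP9 (SLC12A5-AS1), 18.1% for MMP24 (MMP24OS), 17.4% for MMP19 (TMEM198B) and 12.3% for ADAM17 (IAH1). In the authors' deposited table for siControl the base mean of MMP25-AS1 was 479, against 18.2 for MMP25. C10orf55 and SLC12A5-AS1 had 16.7 and 26.1, against 1822 for PLAU and 357 for MMP9, in that authors' deposited table. MMP24OS, TMEM198B and IAH1 had 255, 269 and 226, against 620, 811 and 1781 for MMP24, MMP19 and ADAM17, in the same authors' deposited table. Values of these 6 members are uncertain for this reason, by an amount that the shares do not measure. The same holds for MMP1, which overlaps WTAPP1 over 7.61% of its exon length. Their base means in that table were 17.4 for MMP1 and 69.4 for WTAPP1. Other members had smaller overlaps, some with a gene on the same strand, such as ADAM15 (DCST1) and SERPINB8 (HMSD).

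Of the 58 members, 13 were called in none of the 4 authors' deposited tables: ADAM10, ADAM28, ADAM32, ADAM8, ADAMTS17, ADAMTS19, ADAMTS2, ADAMTS5, MMP1, MMP12, MMP25, SERPINF2 and SERPINI1. ADAM10 and ADAMTS2 were the members among these with base means of at least 100 in every table. Called in all 4 were 12 members, among them ADAM17, ADAM19, ADAMTS3, ADAMTS6, ADAMTS15, MMP16, MMP19, MMP24, SERPINB5, SERPINH1 and TIMP2. No matching count over all genes is given here, so the 13 and the 12 cannot be set against a background.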

How the data were processed

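Poly(A) RNA of 16 U2OS libraries had been sequenced, in 4 groups of 4. Per the submitters' processing notes the work used genome build hg38, bcl2fastq 2.19.1.403, Trimmomatic 0.39, FastQC 0.11.9, cutadapt 2.10, SAMtools 1.10, Picard, featureCounts 1.6.5 and DESeq2 1.20.0. The aligner, the annotation and the strand setting are not given in the sources used here. The 4 deposited tables each compare 8 libraries and summarise groups without values per library. The authors' base mean, per the file headers, is a signal (the mean normalised count), the deposited fold change and its SE are on the log2 scale, the deposited Wald statistic is a score, and the deposited p-value and adjusted p-value come from DESeq2. Whether the fold changes were shrunken is not stated, but the deposited score equals the fold change divided by its SE. Total counts per library are unknown, so the SE carries the precision.

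Members were called at the deposited adjusted p under 0.05. Group levels were computed from base mean and fold change, scaled between tables through the groups they share. The difference of the Nutlin-3a responses was obtained by subtracting the siControl fold change from the siRFX7 one, with the squared SEs added. A two-sided normal test and Benjamini-Hochberg adjustment over all genes followed. This calculation was run on simulated data, with noise drawn from the deposited SEs and planted differences larger than those reported. That run could not show whether the SEs are right or whether differences of the reported size are found. Exon lengths, 3′ UTRs and coordinates came from GENCODE 29 (GRCh38), promoters from RefSeq (GRCh38.p14). Python 3.11.15, numpy 2.4.6, pandas 2.3.3, scipy 1.17.1 and matplotlib 3.10.9 were used.

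The members and gene lists were chosen with earlier results of these data known. Named were PLAU, PLAT, PLAUR, SERPINE2, SERPINH1 and the TIMPs, the 10 members with the highest mean base mean, every member called with an absolute log2 fold change of at least 0.5, and every member whose response differed, which made 31; 1 member is not reported here, and 30 are drawn. Other members named with values were chosen after their values were seen. Alternatives were an adjusted p under 0.01, a size of at least 0.5, a base mean of at least 100, adjustment over genes in all 4 tables, re-centring, scaling by the robust SD, and the difference taken from the siRFX7 tables.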

Additional observations from a re-analysis of the deposited data

Results flagged for a closer look

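In 4 members the response to Nutlin-3a was not the same with either siRNA, by a test of the difference itself (siRFX7 minus siControl, on the log2 scale, Benjamini-Hochberg adjusted over 21339 genes). ADAMTS1 had a difference of 0.60, its level falling less in siRFX7. MMP3 and MMP2 had differences of -0.31 and -0.21, both rising less in siRFX7. ADAMTS6 had a difference of -0.35, falling more in siRFX7. Single libraries could not be inspected, since the tables hold group summaries.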

How the results depend on the processing

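With a log2 size of at least 0.5 required, members called higher and lower with Nutlin-3a numbered 11 and 1 in siControl and 8 and 2 in siRFX7; with siRFX7 they numbered 4 and 1 under DMSO and 4 and 3 under Nutlin-3a. The difference of the responses then held 0 members lower in siRFX7, and 1 at an adjusted p under 0.01, against 3. By construction both rules are stricter. No share of all genes under these stricter rules is given here, so these counts cannot be set against a background. Re-centring on the median of genes whose base mean was at least 100 turned the sign of values that were not called: for Nutlin-3a, ADAM10 (0.024) and ADAMTS12 (0.00032) in siControl and TIMP3 (0.017) in siRFX7; for siRFX7, ADAM10 (-0.0062) and ADAMTS16 (-0.0032) under DMSO and ADAMTS16 (-0.0058) under Nutlin-3a. The SERPINA1 difference passed with a base mean of at least 100 (adjusted p 0.0485) and with the robust SD (adjusted p 0.0394). Calls were also gained with siRFX7 for MMP9 under DMSO (adjusted p 0.0422 at that base mean, 0.0419 re-centred) and TIMP1 under Nutlin-3a (0.0405 at that base mean). For Nutlin-3a, calls were gained in siControl for ADAM9 (0.0367) and SERPINE2 (0.0448), both re-centred, and in siRFX7 for SERPINB7 (0.0273 re-centred) and SERPINE2 (0.0119 re-centred, 0.0426 at that base mean). Re-centring lost the siControl calls of TIMP3 (0.0823) and ADAMTS20 (0.0655). The other counts of members stayed within 1.5 times of those reported under the alternatives run. No paired analysis was possible because the tables hold no value of a single library, and a replicate block and leaving out each replicate were not run for the same reason.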
